A study of Homo sapiens with 9 samples.

Results

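The 43 genes described here are known targets, partners or regulators of ATF4, the transcription factor at the end of the integrated stress response, together with the aminoacyl-tRNA synthetases and amino acid enzymes that it is known to control. They were taken by name from a list and matched to 43 of the 58884 Ensembl gene identifiers in the files. By role the list held 8 regulators, 9 stress effectors and secreted factors, 13 enzymes of amino acid and one-carbon metabolism, and 13 genes of tRNA charging and tRNA export.

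RNA was measured in HK-2 cells, an established human kidney cell line of proximal tubule origin, in 9 libraries. The control group had 3 libraries, from cells that one label calls untreated and that the protocol describes as given vehicle. The PM2.5 group had 3 libraries, from cells exposed for 24 h to PM2.5, the fine fraction of airborne particles. The third group also had 3, from cells given lactoferrin, an iron-binding protein of milk, for 6 h and then PM2.5 for 18 h. The doses in the series text are 40 mg/ml for lactoferrin and 1 mg/ml for PM2.5, units that could not be checked. All groups were grown in a keratinocyte serum-free medium with bovine pituitary extract and epidermal growth factor. There was no group with lactoferrin alone, so lactoferrin and the shorter time in PM2.5 cannot be told apart. Nothing in the labels tells separate cultures from repeat libraries, so every p-value reflects only how far these samples spread, possibly for technical reasons.

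The integrated stress response starts when one of several kinases phosphorylates the initiation factor eIF2, which slows protein synthesis in general but favours translation of the ATF4 messenger. ATF4 then pairs with C/EBP family proteins on DNA and raises genes for amino acid uptake, amino acid synthesis and tRNA charging, and, under lasting stress, the factors CHOP and TRIB3. Because ATF4 is controlled largely at translation, its messenger level is not a measure of its protein. In kidney tubule cells the pathway is known for its part in amino acid shortage and endoplasmic reticulum stress.

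The DNA element bound by ATF4 with C/EBP partners is shown here because the members share it more often than other genes. It was searched as TGATGNAA, and as the stricter TGATGCAA, which is one case of the first, on both strands of the 250 bases before and 50 bases after each RefSeq gene start (GRCh38.p14). Of the 43 members 35 had such a window. The names without one were EIF4EBP1, GPT2, LARS1, NUPR1, PSPH, PYCR1, SHMT2 and YARS1. The 9 examples below are stretches of 30 bases with the element in capitals, each written 5′ to 3′ along the strand on which the element reads TGATG.
AARS1: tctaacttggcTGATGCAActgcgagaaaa
CARS1: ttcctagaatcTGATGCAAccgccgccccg
IARS1: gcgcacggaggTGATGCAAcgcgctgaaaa
MARS1: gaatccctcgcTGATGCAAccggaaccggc
GARS1: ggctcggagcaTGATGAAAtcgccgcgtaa
CEBPG: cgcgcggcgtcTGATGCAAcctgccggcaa
CHAC1: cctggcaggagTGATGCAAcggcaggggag
MTHFD1L: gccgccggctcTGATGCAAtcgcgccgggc
ASNS: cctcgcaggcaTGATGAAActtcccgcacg

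In 7 of the 9 examples the capitals are TGATGCAA, and in GARS1 and ASNS they are TGATGAAA. The stretches lie at chr16:70289675-70289704 (plus strand) for AARS1, at chr11:3057407-3057436 (plus strand) for CARS1, at chr9:92293692-92293721 (plus strand) for IARS1, at chr12:57488053-57488082 (minus strand) for MARS1 and at chr7:30594834-30594863 (minus strand) for GARS1. Those of the other 4 lie at chr19:33374060-33374089 (plus strand) for CEBPG, at chr15:40953251-40953280 (minus strand) for CHAC1, at chr6:150866346-150866375 (plus strand) for MTHFD1L and at chr7:97872458-97872487 (minus strand) for ASNS. Measured from the first base of the element along the gene, the element stood 2 bases before the start in CARS1, 4 in MARS1, 13 in IARS1, 33 in GARS1, 42 in CEBPG, 68 in ASNS, 187 in AARS1 and 209 in CHAC1. MTHFD1L has 3 annotated starts, and its element stood 129 and 90 bases before 2 of them and 25 bases after the third.

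TGATGNAA occurred in 14 of the 35 members (40.0%), against 4.46% of all 27305 genes with a window and 2.66% of the 10022 genes with a window that were expressed enough to be tested. TGATGCAA occurred in 12 of the 35 (34.3%), against 1.08% and 0.669%. Some genes have several windows. Counted by window, TGATGNAA occurred in 16 of 60 member windows (26.7%), against 3.62% of all 35116 windows. ASNS and FGF21 carry TGATGNAA but were not tested, while the 2.66% is for tested genes only. The element was found in 7 of 11 charging and export genes (AARS1, CARS1, GARS1, IARS1, MARS1, NARS1 and TARS1), in 3 of 9 enzymes (ASNS, BCAT1 and MTHFD1L), in 2 of 7 regulators (CEBPG and JDP2) and in 2 of 8 effectors (CHAC1 and FGF21). Among related genes outside the list it was in 0 of 6 other cytosolic synthetases, 1 of 14 mitochondrial synthetases, 4 of 8 amino acid transporters and 0 of 17 genes of the ATF6 and XBP1 branches. A match is a description of the letters only. Such elements are part of how some members came to be known as ATF4 targets, so the excess is not independent of the list.

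Levels are given as FPKM, fragments per kilobase of exon scaled to library size. The libraries held 15313451 to 18820465 counted reads or fragments, and 14454 genes passed a filter of at least 0.5 FPKM in at least 3 libraries. Of 12 proximal tubule markers 10 stayed below 1 FPKM in every library. The kidney lineage factor PAX8 was among the markers expressed above that level, though not the only one, and SLC22A6 was listed at 0 throughout. The summed level of the list was 81.2 to 85.6 FPKM in control, 95.5 to 102 with PM2.5 and 79.9 to 92.6 with lactoferrin before PM2.5. The sum does not give the direction of single markers. Of the 3 that were tested 1 rose and 1 fell with PM2.5 against control (limma, adjusted p under 0.05). Their log2 fold changes ran from -0.98 to 0.61. Of 12 markers of immune, fibroblast, endothelial, distal nephron and squamous cells 11 stayed below 1 FPKM everywhere. The exception was the collagen gene COL1A1, the squamous keratin gene KRT5 was listed at 0, and the summed level of that list was 6.59 to 8.42 FPKM in control, 1.47 to 1.71 with PM2.5 and 1.2 to 1.68 with lactoferrin before PM2.5. The part of these markers in the results below was not tested. Control replicate 3 and lactoferrin replicate 1 differed from the other libraries of their groups. Values without these or other single libraries are given for some, not all, of the calls and sizes that depended on them.

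The first comparison was between PM2.5 and control. With PM2.5, 25 of the 41 tested members rose and 1 fell (limma on log2(FPKM + 0.5), Benjamini-Hochberg adjusted p under 0.05 over all 14454 genes), while 18.7% of all tested genes rose and 16.4% fell. The rises were led by GDF15, TRIB3, CHAC1, STC2, DDIT3, CEBPB, CTH and PPP1R15A, which were at least 2-fold higher, as were 3.2% of all tested genes. The median log2 fold change of the 41 was 0.52, against 0.00 for all tested genes. On the deposited FPKM, before scaling, every PM2.5 library lay above every control library in 31 members, against 30.9% of all tested genes, and in 1 every one lay below, against 22.7%. By role, 5 of 8 regulators, 4 of 8 tested effectors, 7 of 12 tested enzymes and 9 of 13 charging and export genes rose, and the single fall was an enzyme. FGF21 and ASNS were below the filter. These are bulk libraries, so a change in RNA per cell and a change in the mixture of cells cannot be told apart.

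**Figure D1:**
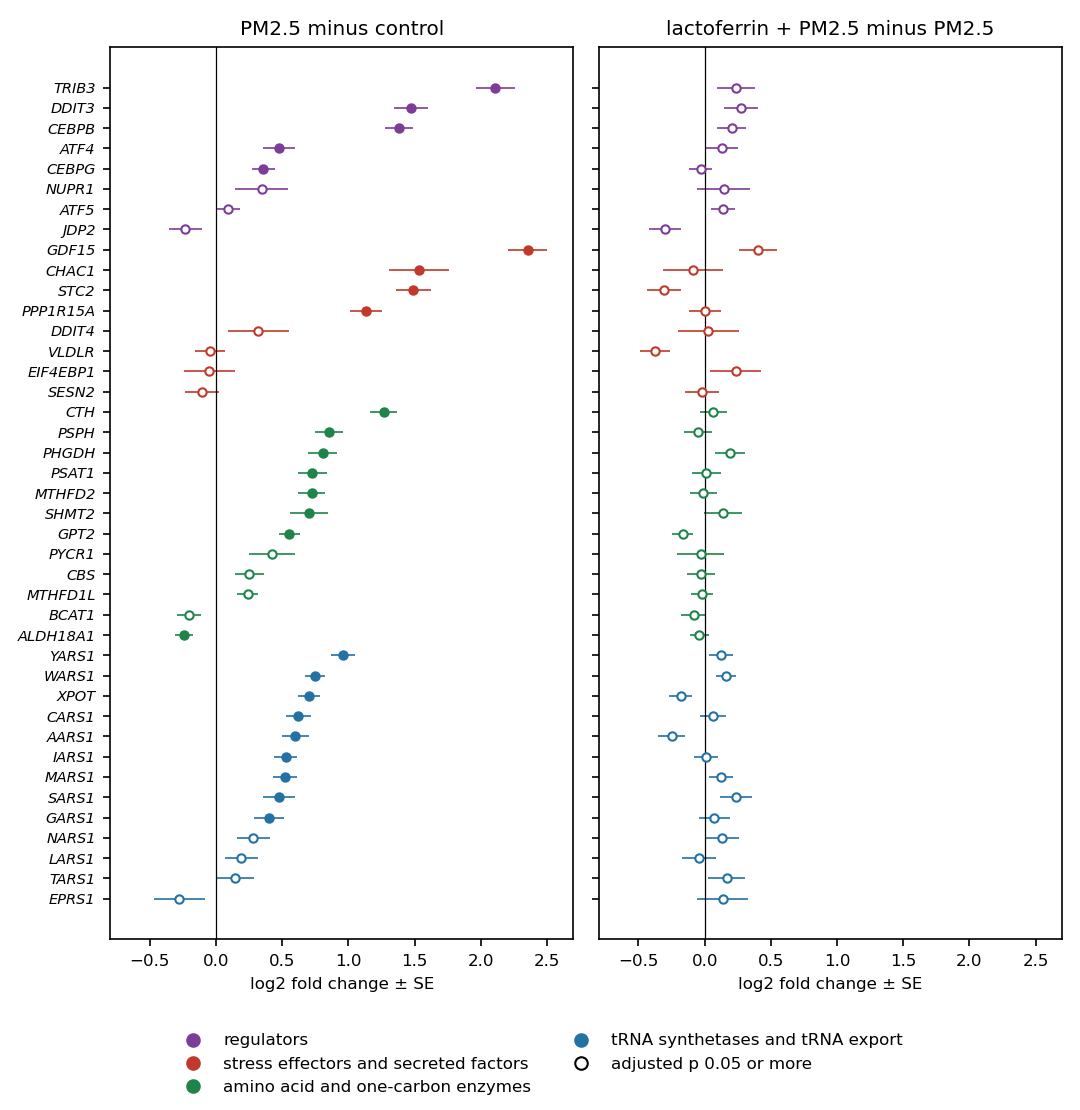
Log2 fold change of each of the 41 tested members (x axis, points with SE bars; y axis, genes by role and size), for PM2.5 minus control on the left and lactoferrin plus PM2.5 minus PM2.5 on the right. On the left 26 points are filled (adjusted p under 0.05), with GDF15 farthest right at 2.35, and on the right 0 are filled.

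Among the regulators, ATF4 itself (ENSG00000128272, chr22:39519695-39522685) had the highest level of all 43 genes in the control group. It stood at 161, 146 and 139 FPKM in the control libraries, at 226, 206 and 208 with PM2.5 and at 266, 230.5 and 206 with lactoferrin before PM2.5. The control and PM2.5 libraries did not overlap, and the rise was modest, at a log2 fold change of 0.47 ± 0.12 (SE) and adjusted p = 0.0148 in limma. Its call rested on single libraries: adjusted p was 0.0525 without control replicate 2 and 0.0605 without PM2.5 replicate 1.

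TRIB3 (ENSG00000101255, chr20:362835-397559), a pseudokinase that binds ATF4 and restrains it, rose most among the regulators. Its FPKM were 21.1, 21.7 and 14.5 in control, 97.9, 76.8 and 82.9 with PM2.5 and 99.9, 106 and 94.7 with lactoferrin before PM2.5. Control replicate 3 was the lowest control library, and even the lowest PM2.5 library was far above the highest control. The log2 fold change was 2.11 ± 0.15 (SE), with adjusted p = 1.25e-05 in limma.

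DDIT3 (ENSG00000175197, chr12:57516588-57521737) encodes CHOP, the C/EBP relative that ATF4 induces under lasting stress. Its libraries read 13.7, 14.0 and 11.4 FPKM in control, 38.0, 38.4 and 38.1 with PM2.5 and 55.5, 44.3 and 39.9 with lactoferrin before PM2.5, so that the PM2.5 libraries were nearly equal and all above control. The log2 fold change was 1.47 ± 0.13 (SE; adjusted p = 4.46e-05, limma). Part of DDIT3 lies opposite the synthetase gene MARS1, with 355 exon bases and 33.5% of the DDIT3 coding bases shared on opposite strands. The strand setting of the counting is not given in the sources used here. Reads from these bases therefore cannot be told apart. The same holds for 38.9% of the coding bases of DDIT4, opposite DDIT4-AS1 (listed at 0), 24.7% of those of VLDLR, opposite VLDLR-AS1, and 22.3% of those of CEBPB, opposite CEBPB-AS1. It also holds for 21.2% of the exon bases of ATF5, opposite NUP62, and 27.2% of those of MTHFD2, opposite SLC4A5.

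CEBPB (ENSG00000172216, chr20:50190734-50192689), a C/EBP partner of ATF4, stood at 34.3, 33.1 and 29 FPKM in control, 99.9, 80.1 and 82.6 with PM2.5 and 95.3, 107 and 98.2 with lactoferrin before PM2.5. No exposed library came near the controls, and the log2 fold change for PM2.5 was 1.38 ± 0.11 (SE; adjusted p = 2.4e-05, limma). CEBPG, a short C/EBP protein that pairs with ATF4, moved less. Its FPKM were 7.73, 9.05 and 8.82 in control and 11.6, 11.4 and 11.2 with PM2.5, without overlap, at a log2 fold change of 0.36 ± 0.09 (SE; adjusted p = 0.0112, limma).

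The other 3 regulators did not pass the test. ATF5, a stress factor close to ATF4, was at 7.70, 6.81 and 7.67 FPKM in control and 8.51, 7.84 and 8.17 with PM2.5, a log2 fold change of 0.09 ± 0.09 (SE) with adjusted p = 0.453 (limma). NUPR1, a small stress-induced chromatin protein, was at 0.414, 0.192 and 0.313 FPKM in control and 0.577, 0.501 and 0.520 with PM2.5. These values rest on 18.0 to 61.0 rebuilt reads per library, and every control library was below the filter level, so NUPR1 was tested only because of the exposed libraries (log2 fold change 0.35 ± 0.20, SE; adjusted p = 0.210, limma). JDP2, a repressor that competes for ATF4 and AP-1 sites, was at 3.93, 4.19 and 4.80 FPKM in control and 4.05, 3.36 and 3.72 with PM2.5. The groups overlapped, and its log2 fold change of -0.23 ± 0.12 (SE) had adjusted p = 0.170 (limma). Without control replicate 3, the highest control, it was -0.14.

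Among the effectors and secreted factors, 4 genes rose, all at least 2-fold. GDF15 (ENSG00000130513, chr19:18374731-18389176), a secreted cytokine that signals cellular stress to the brain, showed the largest change of the 41 tested members. It was at 15.2, 14.4 and 15.8 FPKM in control, 103, 70.2 and 76.3 with PM2.5 and 106, 116 and 102 with lactoferrin before PM2.5. The control libraries lay close together and all exposed ones were several times higher. The log2 fold change with PM2.5 was 2.35 ± 0.15 (SE; adjusted p = 7.02e-06, limma), and the group means differed 5.49-fold.

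CHAC1 (ENSG00000128965, chr15:40952962-40956519), the glutathione-degrading enzyme whose element is shown above, was at 3.41, 3.15 and 1.84 FPKM in control, 12.1, 7.69 and 8.03 with PM2.5 and 8.11, 10.3 and 7.38 with lactoferrin before PM2.5. Control replicate 3 was lowest and PM2.5 replicate 1 highest, and the groups did not overlap. Its log2 fold change of 1.53 ± 0.23 carried the widest SE of the 8 largest rises (adjusted p = 0.000966, limma).

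STC2 (ENSG00000113739, chr5:173314713-173329503), a secreted glycoprotein induced by endoplasmic reticulum stress, was at 10.3, 10.4 and 11.3 FPKM in control, 33.3, 30.7 and 31.5 with PM2.5 and 20.0, 27.6 and 29.9 with lactoferrin before PM2.5. All exposed libraries were above control, with lactoferrin replicate 1 the lowest of them. The log2 fold change with PM2.5 was 1.49 ± 0.13 (SE; adjusted p = 4.68e-05, limma).

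PPP1R15A (ENSG00000087074, chr19:48872392-48876057) encodes GADD34, the phosphatase subunit that removes the phosphate from eIF2 and so closes the response. It was at 28.1, 30.8 and 38.1 FPKM in control, 71.9, 72.6 and 75.5 with PM2.5 and 70.0, 74.8 and 74.7 with lactoferrin before PM2.5. The exposed libraries were all alike and well above control, with a log2 fold change of 1.13 ± 0.12 (SE; adjusted p = 0.000162, limma).

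**Figure D2:**
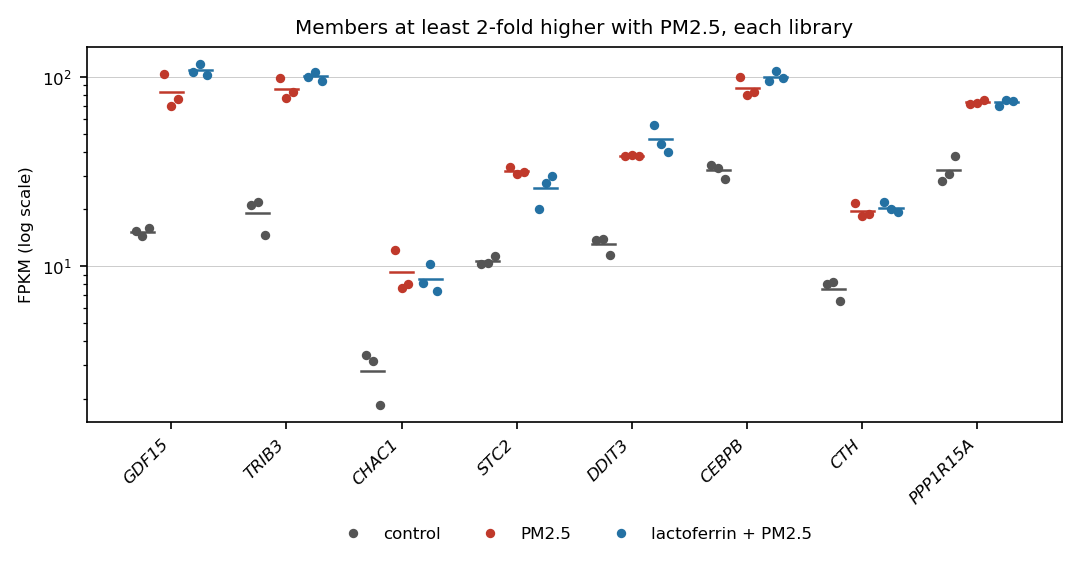
FPKM on a log axis (y) of the 8 members at least 2-fold higher with PM2.5 (x), 1 point per library and a bar at each group mean. All PM2.5 and lactoferrin plus PM2.5 points lie above all control points in each of the 8 genes, and CHAC1 has the lowest levels.

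The other 4 tested effectors did not pass the test. DDIT4, an inhibitor of mTORC1, was at 29.9, 28.6 and 15.3 FPKM in control and 38.5, 28.3 and 26.0 with PM2.5, and control replicate 3 lay apart at the low end (log2 fold change 0.32 ± 0.23, SE; adjusted p = 0.309, limma). Without that library the DDIT4 log2 fold change came to 0.03, and leaving out PM2.5 replicate 1 gave 0.14. SESN2, a leucine-sensing inhibitor of mTORC1, was at 30.1, 29.9 and 25.4 and 32.3, 24.3 and 25.7 FPKM, which overlapped (log2 fold change -0.11 ± 0.13, SE; adjusted p = 0.553, limma). EIF4EBP1, which blocks cap-dependent translation, was at 91.5, 69.0 and 59.3 and 81.4, 66.0 and 68.8 FPKM, and its direction changed when single libraries were left out (log2 fold change -0.05 ± 0.19, SE; adjusted p = 0.855, limma). VLDLR, a lipoprotein receptor under ATF4 control, was at 5.80, 6.60 and 6.55 FPKM in control and 6.16, 6.19 and 6.56 with PM2.5, again with overlap (log2 fold change -0.04 ± 0.11, SE; adjusted p = 0.789, limma).

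FGF21, a hormone secreted chiefly by liver under ATF4 control, had 1 rebuilt read in control replicate 1 and was listed at 0 in the other 8 libraries. ASNS, the asparagine synthetase gene at chr7:97852118-97872542 and a textbook ATF4 target, was at 0.0667, 0.0617 and 0.0117 FPKM in control, 0.197, 0.171 and 0.151 with PM2.5 and 0.119, 0.0833 and 0.117 with lactoferrin before PM2.5. These correspond to 0.91 to 16.4 rebuilt reads per library. The level cannot be read as the expression of ASNS, because 96.1% of its 1752 coding bases lie in same-strand exons of a second annotated gene, AC079781.5, and how reads in both genes were assigned is not given in the sources used here. AC079781.5 itself had mean levels of 0.0661, 0.134 and 0.0950 FPKM in the 3 groups.

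Among the enzymes, the 3 genes of serine synthesis rose. PHGDH, the first enzyme of serine synthesis, was at 9.0, 9.15 and 8.02 FPKM in control and 18.2, 14.6 and 15.7 with PM2.5. PSAT1, the transaminase that follows it, was at 29.6, 29.3 and 23.0 and 50.7, 43.1 and 46.6 FPKM. PSPH, the phosphatase of the last step, was at 16.3, 16.1 and 13.1 and 30.7, 26.9 and 28.2 FPKM. Control and PM2.5 libraries did not overlap in any of the 3 genes. Their log2 fold changes were alike, at 0.81 ± 0.11 for PHGDH, 0.73 ± 0.11 for PSAT1 and 0.85 ± 0.11 for PSPH (SE; adjusted p = 0.000653, 0.00103 and 0.000367, limma).

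SHMT2 and MTHFD2 carry the serine carbon into folate inside mitochondria. SHMT2 was at 34.2, 33.1 and 24.7 FPKM in control and 58.4, 47.3 and 48.9 with PM2.5, and MTHFD2 was at 29.7, 28.4 and 27.2 and 52.9, 46.1 and 47.4 FPKM. Both were above control in every PM2.5 library, by 0.70 ± 0.14 for SHMT2 and 0.72 ± 0.10 for MTHFD2 on the log2 scale (SE; adjusted p = 0.00477 and 0.000731, limma). MTHFD1L, the last enzyme of that mitochondrial arm, was at 7.44, 7.69 and 8.37 FPKM in control and 9.35, 9.74 and 9.77 with PM2.5, without overlap, but its smaller log2 fold change of 0.24 ± 0.08 (SE) missed the threshold narrowly (adjusted p = 0.0501, limma). Without control replicate 3, the highest control, it passed, with adjusted p = 0.0154 (limma).

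CTH (ENSG00000116761, chr1:70411218-70439851), which releases cysteine in transsulfuration, rose most among the enzymes. It was at 8.01, 8.23 and 6.58 FPKM in control, 21.4, 18.5 and 18.8 with PM2.5 and 21.9, 20.0 and 19.2 with lactoferrin before PM2.5. The exposed libraries lay in a narrow band well above control, with a log2 fold change of 1.27 ± 0.10 (SE; adjusted p = 3.35e-05, limma). CBS, the enzyme one step earlier, was low, at 1.38, 1.05 and 0.938 FPKM in control and 1.42, 1.45 and 1.51 with PM2.5. Its groups did not overlap, yet the log2 fold change of 0.25 ± 0.11 (SE) did not pass (adjusted p = 0.102, limma). Without control replicate 1, the highest control, it did (adjusted p = 0.0379, limma).

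GPT2, the mitochondrial alanine transaminase, was at 12.9, 13.4 and 11.5 FPKM in control and 20.5, 17.8 and 19.6 with PM2.5, a non-overlapping rise of 0.55 ± 0.08 on the log2 scale (SE; adjusted p = 0.000803, limma). The 2 proline genes did not move alike. ALDH18A1, the first enzyme of proline synthesis, was the single member that fell. It had the highest control level among the enzymes, at 71.0, 73.0 and 69.8 FPKM, and was at 62.1, 61.3 and 63.2 with PM2.5 and 56.7, 62.5 and 61.4 with lactoferrin before PM2.5. All exposed libraries were below all controls, but the log2 fold change of -0.24 ± 0.07 (SE) was small (adjusted p = 0.0254, limma). The call was lost without scaling of FPKM (adjusted p = 0.0603), without control replicate 2 (0.0801), and without PM2.5 replicate 1 (0.0607), replicate 2 (0.0927) or replicate 3 (0.0878, limma).

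PYCR1, the last enzyme of proline synthesis, was at 25.5, 25.2 and 14.8 FPKM in control and 32.3, 27.1 and 29.3 with PM2.5. The groups did not overlap, but control replicate 3 lay far below the other controls and the log2 fold change of 0.42 ± 0.18 (SE) did not pass (adjusted p = 0.0940, limma). Without that library it was 0.19 (adjusted p = 0.248, limma). BCAT1, the cytosolic branched-chain transaminase, was at 26.1, 28.5 and 27.8 FPKM in control and 21.8, 25.7 and 26.3 with PM2.5. Its PM2.5 libraries were all under the highest 2 controls and overlapped the third, with a log2 fold change of -0.21 ± 0.09 (SE; adjusted p = 0.113, limma).

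**Figure D3:**
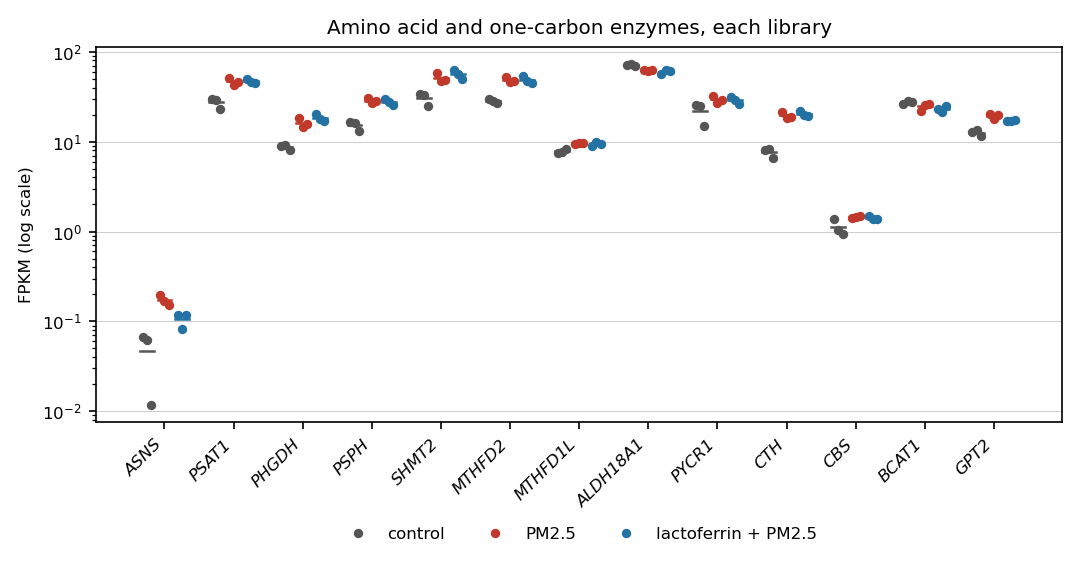
FPKM on a log axis (y) of the 13 enzymes of amino acid and one-carbon metabolism (x), 1 point per library and a bar at each group mean. CTH, PHGDH, PSAT1, PSPH, SHMT2, MTHFD2 and GPT2 show exposed points above control, and ALDH18A1 shows them below. MTHFD1L, PYCR1 and CBS, which did not pass the test, also show exposed points above control. So does ASNS, which lies under the filter level of 0.5 FPKM.

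Aminoacyl-tRNA synthetases join each amino acid to its tRNA, and XPOT carries tRNA out of the nucleus. YARS1, for tyrosine, rose most. It was at 14.9, 14.8 and 15.0 FPKM in control, 32.0, 28.3 and 31.0 with PM2.5 and 35.1, 33.4 and 30.5 with lactoferrin before PM2.5. The controls were nearly equal and the exposed libraries were all far above them, with a log2 fold change of 0.96 ± 0.09 (SE; adjusted p = 7.43e-05, limma).

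WARS1, for tryptophan, was at 19.5, 18.7 and 18.4 FPKM in control and 34.5, 31.8 and 32.8 with PM2.5. XPOT was at 31.6, 34.0 and 33.8 and 54.7, 57.1 and 56.1 FPKM. CARS1, for cysteine, was the least abundant synthetase of the list, at 3.88, 3.72 and 4.12 and 6.83, 6.17 and 6.46 FPKM. None of the 3 overlapped between groups, and the log2 fold changes were 0.75 ± 0.07 for WARS1, 0.70 ± 0.08 for XPOT and 0.62 ± 0.10 for CARS1 (SE; adjusted p = 9.55e-05, 0.000324 and 0.00123, limma).

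AARS1, for alanine, was at 27.1, 27.0 and 29.8 FPKM in control and 45.2, 43.1 and 43.6 with PM2.5. IARS1, for isoleucine, was at 63.4, 64.2 and 72.3 and 95.5, 101 and 101 FPKM. MARS1, for methionine, was at 25.2, 26.4 and 27.3 and 41.6, 37.6 and 38.1 FPKM. AARS1, IARS1 and MARS1 all rose without overlap, by 0.60 ± 0.10, 0.52 ± 0.09 and 0.52 ± 0.09 on the log2 scale (SE; adjusted p = 0.00197, 0.00217 and 0.00234, limma). These 3 genes carry TGATGCAA in the window searched. So do CARS1, which rose, and NARS1 and TARS1, which did not pass the test.

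SARS1, for serine, was at 33.4, 31.9 and 33.0 FPKM in control and 51.9, 46.1 and 44.2 with PM2.5, a log2 fold change of 0.48 ± 0.12 (SE; adjusted p = 0.0141, limma). Its call was lost without control replicate 2 (0.0509) and without PM2.5 replicate 1 (0.0568, adjusted p in limma). GARS1, for glycine, was at 44.8, 43.6 and 53.6 and 68.4, 61.8 and 63.3 FPKM, a log2 fold change of 0.40 ± 0.11 (SE; adjusted p = 0.0240, limma). The groups of both genes were separate. The GARS1 call was the least stable of the rises, with adjusted p = 0.0634 without the filter, 0.0778 and 0.0884 without control replicates 1 and 2, and 0.0885, 0.0507 and 0.0502 without PM2.5 replicates 1, 2 and 3 (limma).

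In each of the 4 synthetases that did not pass, control replicate 3 was the highest control library. NARS1, for asparagine, was at 49.4, 50.7 and 61.9 FPKM in control and 63.0, 69.6 and 70.2 with PM2.5. LARS1, for leucine, was at 17.7, 19.3 and 24.2 and 22.1, 24.7 and 25.0 FPKM. TARS1, for threonine, was at 50.2, 49.9 and 64.9 and 59.2, 65.7 and 62.6 FPKM. In LARS1 and TARS1 that library lay within the PM2.5 range, and in NARS1 just under it. The log2 fold changes were 0.28 ± 0.12 for NARS1, 0.19 ± 0.13 for LARS1 and 0.15 ± 0.14 for TARS1 (SE; adjusted p = 0.110, 0.273 and 0.439, limma). Without control replicate 3 the log2 fold changes were 0.40 for NARS1, 0.33 for LARS1 and 0.29 for TARS1. NARS1 then passed with adjusted p = 0.0218 and LARS1 with 0.0195 (limma). TARS1 passed, with 0.00769, only when lactoferrin replicate 1 was also left out, a choice made after seeing the data (limma). Leaving out the highest control enlarges a rise by construction, so these values are no separate evidence of a rise.

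EPRS1, the fused enzyme for glutamate and proline, had the widest spread among the charging genes. It was at 50.8, 57.1 and 80.8 FPKM in control, 42.7, 58.5 and 57.9 with PM2.5 and 62.9, 52.5 and 57.5 with lactoferrin before PM2.5. Control replicate 3 was the highest of the 9 libraries and PM2.5 replicate 1 the lowest. The groups overlapped, and the log2 fold change of -0.28 ± 0.19 (SE) did not pass (adjusted p = 0.294, limma). Its size depended on single libraries: it was -0.07 without control replicate 3, -0.43 without control replicate 1 and -0.15 without PM2.5 replicate 1.

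Synthetases outside the list were counted beside it, again against 18.7% of all tested genes higher and 16.4% lower. Of 8 other cytosolic synthetase genes 3 rose and 1 fell, with a median log2 fold change of 0.19. The glutamine enzyme QARS1 fell by 0.41 (SE 0.07; adjusted p = 0.00241, limma), and FARSA and VARS1, for phenylalanine and valine, rose by 0.46 ± 0.12 and 0.43 ± 0.08 (SE; adjusted p = 0.0154 and 0.00293, limma). The FARSA call was lost without control replicate 2 (0.0550) and without PM2.5 replicate 1 (0.0597, adjusted p in limma). Of 17 mitochondrial synthetase genes 6 rose and 3 fell, with a median of 0.21, and MARS2, PARS2 and CARS2 had the largest changes at 0.75 ± 0.12, 0.59 ± 0.12 and 0.54 ± 0.11 (SE; adjusted p = 0.00178, 0.00411 and 0.00408, limma). The 13 charging and export genes of the list had a median of 0.52. The differences between these groups of genes were not tested.

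**Figure D4:**
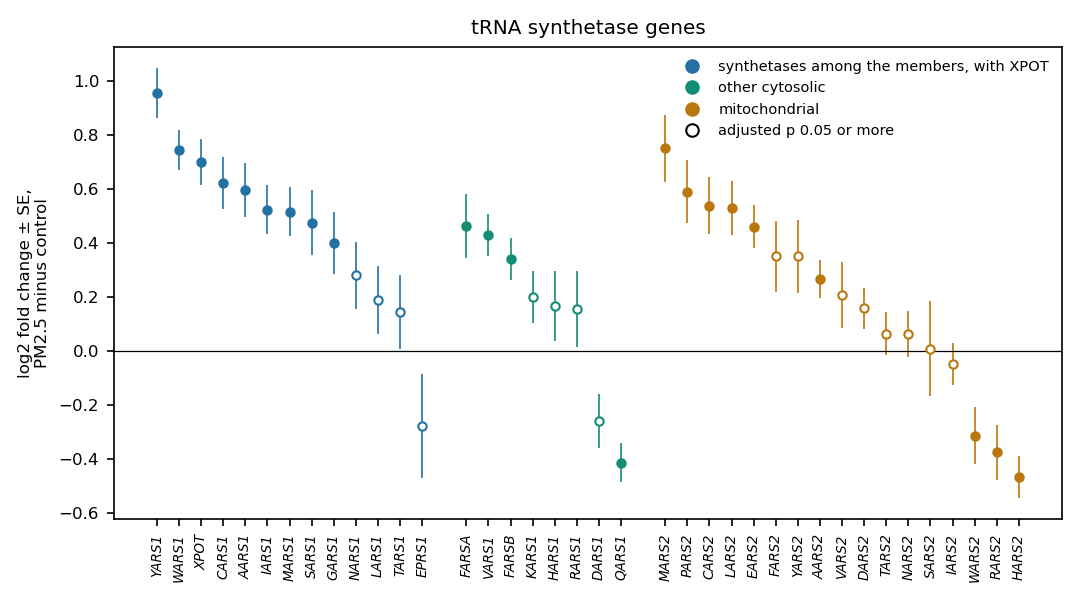
Log2 fold change with SE (y), PM2.5 minus control, for 38 tRNA charging genes (x) in 3 sets: the 13 of the list, 8 other cytosolic and 17 mitochondrial. Filled points passed the adjusted p threshold; YARS1 is highest at 0.96, and the falls that passed are QARS1 and 3 mitochondrial genes.

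Members with and without the element overlapped in size of change, and the difference between them was not tested. Members without a window are left out here. Of the 12 tested members with TGATGNAA in the window 7 rose, and the log2 fold changes ran from -0.23 to 1.53 around a median of 0.38. Of the 21 tested members with a window but no element 14 rose and 1 fell, with a median of 0.72 and a range from -0.28 to 2.35. The window searched is short, and ATF4 binding was not measured.

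Genes up and down the same pathway gave the following counts, to be read against the 18.7% of all tested genes that rose and the 16.4% that fell. The first list held 16 genes: the eIF2 kinases, GCN1, DELE1, OMA1, and genes of eIF2, its exchange factor and its phosphatase. Of these 5 rose and 0 fell, with a median log2 fold change of 0.10. The kinase genes EIF2AK1, EIF2AK2, EIF2AK3 and EIF2AK4 were not among the rises. EIF2AK1 and EIF2AK3 lay below control in every PM2.5 library and EIF2AK4 above, without passing the test. Their log2 fold changes were -0.18 ± 0.09, -0.39 ± 0.16 and 0.21 ± 0.11 (SE; adjusted p = 0.137, 0.0863 and 0.163, limma). With lactoferrin before PM2.5 against control, EIF2AK1 and EIF2AK3 fell, at -0.28 ± 0.09 and -0.79 ± 0.16 (SE; adjusted p = 0.0281 and 0.00389, limma). EIF2AK2 and EIF2AK4 did not pass there. PPP1R15B, the constitutive partner of PPP1R15A, rose by 0.73 ± 0.13, and the exchange factor subunits EIF2B3 and EIF2B5 by 0.44 ± 0.11 and 0.37 ± 0.08 (SE; adjusted p = 0.00247, 0.0137 and 0.00710, limma). The EIF2B3 call was lost without PM2.5 replicate 1 (adjusted p = 0.0533, limma). Of 9 amino acid transporter genes 8 rose and 0 fell, with a median of 1.12. SLC7A11, the cystine importer, rose by 1.62 ± 0.18, SLC6A9, a glycine importer, by 1.6 ± 0.13, and SLC7A5, the large neutral amino acid exchanger, by 1.39 ± 0.16 (SE; adjusted p = 0.000218, 3.04e-05 and 0.000285, limma). SLC6A9 was at 0.494, 0.492 and 0.511 FPKM in control, so it passed the filter only through the exposed libraries, and its log2 fold change was 2.13 with a pseudocount of 0.1 and 1.24 with 1. SLC43A1, another of the rises, also passed the filter only through the exposed libraries, at 0.204, 0.308 and 0.244 FPKM in control. Its log2 fold change of 1.12 was the median of the 9 transporter genes. Of 17 genes of the ATF6 and XBP1 branches of the unfolded protein response 12 rose and 0 fell, with a median of 0.55. ERN1, the sensor IRE1, rose by 1.08 ± 0.17, and DNAJB9 and EDEM1, of endoplasmic reticulum folding and degradation, by 0.82 ± 0.11 and 0.72 ± 0.11 (SE; adjusted p = 0.00142, 0.000552 and 0.00122, limma).

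The libraries of a group did not contribute alike. On the scaled log2 values PM2.5 replicate 1 was the highest of its group in 30 of 41 members, and lactoferrin replicate 1 was the highest of its group in 25, while lactoferrin replicate 3 was the lowest in 27. Control replicate 3 was the highest control in 13 of 13 charging and export genes (10 of 13 on unscaled FPKM) and the lowest control in 8 of 12 tested enzymes (10 of 12 unscaled). Its median difference from the control mean was 0.15 in charging and export genes and -0.10 in the enzymes. In PM2.5 replicates 1, 2 and 3 the medians over all 41 members were 0.64, 0.44 and 0.45 above the control mean, and in the lactoferrin replicates 0.59, 0.50 and 0.47. Thus each of the 6 exposed libraries lay above each control, whose medians ran from -0.03 to 0.06. Without control replicate 3, 29 of the 41 members were called with PM2.5 against control, against 26 with it. With lactoferrin replicate 1 also left out, a choice made after seeing the data, 30 were. Without PM2.5 replicate 1 the count was 22, and the median log2 fold change was 0.46. Without control replicate 2 the count was also 22.

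**Figure D5:**
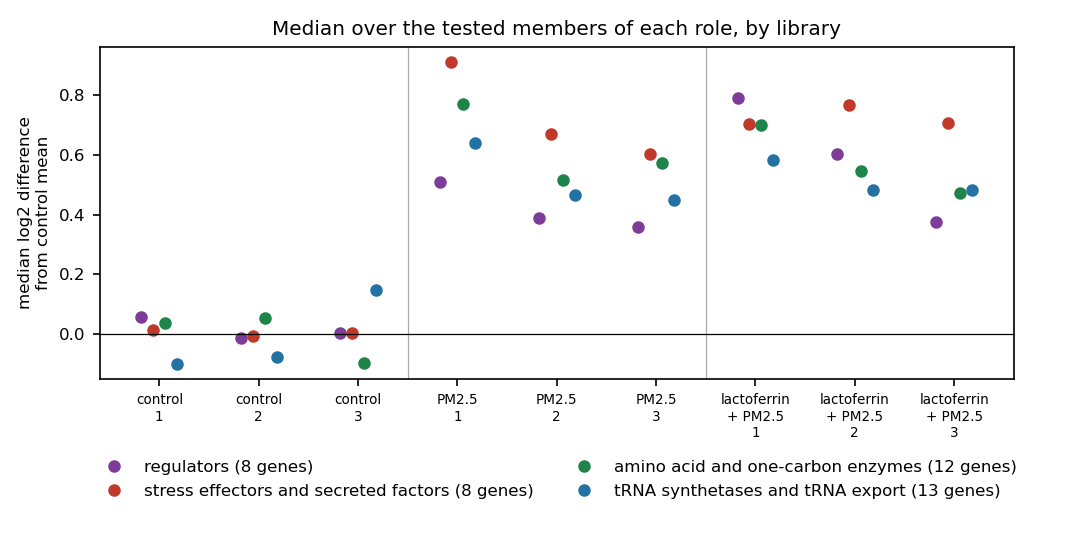
Median over the tested members of each role (y) of the difference in log2(FPKM + 0.5) from the control mean, in each of the 9 libraries (x). All exposed libraries lie at 0.36 or above in every role, and control replicate 3 stands at 0.15 for charging and export genes and at -0.10 for the enzymes.

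The second comparison set lactoferrin before PM2.5 against PM2.5. Of the 41 tested members 0 rose and 0 fell (limma, Benjamini-Hochberg adjusted p under 0.05), as against 0.0484% of all tested genes called in either direction, and limma-voom on rebuilt reads also called 0. At an unadjusted p under 0.05 there were 5 members, and 1764 of all 14454 genes. The log2 fold changes ran from -0.37 to 0.40 with a median of 0.03, and 24 were positive and 17 negative. The smallest adjusted p was 0.324, for VLDLR. A p above the threshold does not show that the groups were alike.

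On the deposited FPKM of 4 members every lactoferrin library lay above every PM2.5 library, against 11.3% of all tested genes, and in 5 every one lay below, against 9.79%. The 4 were ATF5, DDIT3, TARS1 and WARS1, and the 5 were JDP2, STC2, VLDLR, GPT2 and AARS1. VLDLR was at 6.16, 6.19 and 6.56 FPKM with PM2.5 and 3.83, 5.08 and 5.38 with lactoferrin before it, with lactoferrin replicate 1 the lowest (log2 fold change -0.37 ± 0.11, SE; adjusted p = 0.324, limma). AARS1 was at 45.2, 43.1 and 43.6 and 31.7, 38.3 and 40.8 FPKM, again lowest in lactoferrin replicate 1 (log2 fold change -0.25 ± 0.10, SE; adjusted p = 0.398, limma). DDIT3, with the values given above, was highest in that same library (log2 fold change 0.28 ± 0.13, SE; adjusted p = 0.416, limma). JDP2 was at 4.05, 3.36 and 3.72 FPKM with PM2.5 and 3.01, 2.51 and 3.20 with lactoferrin before it, lowest in lactoferrin replicate 2 (log2 fold change -0.30 ± 0.12, SE; adjusted p = 0.398, limma).

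GDF15 had the most positive difference, at 0.40 ± 0.15 (SE; adjusted p = 0.380, limma). PM2.5 replicate 1 lay among the lactoferrin libraries, and the other 2 PM2.5 libraries lay below them. By role the medians were 0.14 for regulators, -0.01 for effectors, -0.02 for enzymes and 0.12 for charging and export genes. The median over all members was 0.11 without PM2.5 replicate 1 and -0.01 without lactoferrin replicate 1, so its sign depended on which library was left out.

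The third comparison set lactoferrin before PM2.5 against control. It shares its control libraries with the first and its exposed libraries with the second, so it is no separate evidence for either. Of the 41 tested members 26 rose and 4 fell (limma, Benjamini-Hochberg adjusted p under 0.05), against 20.3% and 18.2% of all tested genes. The median log2 fold change was 0.52. In order of size the largest rises were those of GDF15 at 2.76 ± 0.15, TRIB3 at 2.35 ± 0.15, DDIT3 at 1.75 ± 0.13 and CEBPB at 1.59 ± 0.11 (SE; adjusted p = 2.39e-06, 5.16e-06, 1.26e-05 and 8.21e-06, limma).

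The 4 falls were JDP2, VLDLR, BCAT1 and ALDH18A1. JDP2 stood at 3.01, 2.51 and 3.20 FPKM against 3.93, 4.19 and 4.80 in control, a log2 fold change of -0.53 ± 0.12 (SE; adjusted p = 0.00791, limma). VLDLR stood at 3.83, 5.08 and 5.38 FPKM against 5.80, 6.60 and 6.55, a log2 fold change of -0.42 ± 0.11 (SE; adjusted p = 0.0170, limma). BCAT1 stood at 23.3, 21.2 and 24.7 FPKM against 26.1, 28.5 and 27.8, a log2 fold change of -0.29 ± 0.09 (SE; adjusted p = 0.0337, limma). ALDH18A1, with its values above, had -0.28 ± 0.07 (SE; adjusted p = 0.0117, limma). In all 4 the lactoferrin and control libraries did not overlap. The BCAT1 call was lost under 10 of 19 alternative settings, with adjusted p up to 0.115 (limma). Those of VLDLR and ALDH18A1 were lost under 1 each, and that of JDP2 under 0. Among the rises, the calls of AARS1 and NARS1 were lost under 6 each.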

How the data were processed

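The authors deposited 1 table of FPKM per library, each listing 58884 Ensembl genes. That the unit is FPKM was worked out from the numbers themselves: multiplied by GENCODE v29 exon lengths (58611 identifiers), 86.04% to 87.29% of values of at most 200 reads were whole multiples of 1 step within 0.05. Per the submitters' processing notes, the work used GRCh38 and, in no stated order, HISAT2 2.1.0, Trimmomatic 0.38 and featureCounts 1.6.0, besides CASAVA, FastQC, MultiQC and DESeq2 1.22.1. The annotation, the strand setting and how reads shared by genes were handled were not given in the sources used here.

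FPKM were divided by trimmed mean of M values factors (0.942 to 1.036). Then log2(FPKM + 0.5) was fitted with 3 group means over all 9 libraries in limma 3.58.1 under R 4.3.3, using eBayes with trend and robust options, and Benjamini-Hochberg adjustment over the 14454 genes with at least 0.5 FPKM in at least 3 libraries. Fold changes on this scale understate those of low genes. Fold changes have SE, and FPKM of single libraries have no error of their own. The fit was tested on simulated data, and the outcome is not reported here. Those data had the same set spread for all genes (dispersion 0.01). They cannot show how the fit handles a library that stands apart from its group. The members and gene lists were chosen with earlier results of these data known.

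Named genes were all 43 members, the 3 called genes with the largest change in each other list, and genes overlapping a member. Some further list genes and markers were named to state what a list held or a limit of its count. One list and some single genes are left unreported here. Values in every library were given for the largest changes and decreases, and for further members. Alternatives covered scaling, pseudocount, filter, limma-voom, the libraries fitted, a replicate block and leaving out each library. Gene coordinates came from GENCODE v29 (GRCh38) and promoter windows from RefSeq (GRCh38.p14).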

Additional observations from a re-analysis of the deposited data

How the results depend on the processing

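For PM2.5 against control, 26 members were called, 25 to 27 under the other scalings, pseudocounts, filters, fits and limma-voom, and 22 to 29 when each library was left out in turn. For lactoferrin before PM2.5 against control, 30 were called, with 26 to 32 under the alternatives. The median of the 41 members stayed between 0.46 and 0.56 and between 0.48 and 0.57 in these comparisons. For lactoferrin before PM2.5 against PM2.5 0 members were called under each of the 19 alternatives, and the median ran from -0.0056 to 0.11 over the fits without single libraries. Of the 26 calls with PM2.5, 22 held under all 19 alternatives, as did 25 of the 30 with lactoferrin before PM2.5 against control.

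Whether the replicate numbers shared by the groups pair the samples could not be settled. Same-numbered libraries correlated by -0.068 to 0.179 in their deviations from the group means, and 2 of 9 pairs exceeded 0.1. Differently numbered libraries correlated by -0.179 to 0.136, and 1 of 18 pairs exceeded 0.1. With the replicate block, 27, 0 and 31 members were called for PM2.5 against control, lactoferrin before PM2.5 against PM2.5, and lactoferrin before PM2.5 against control, and PYCR1 passed with PM2.5 (adjusted p = 0.0338, limma). Over all tested genes the block gave 5685, 13 and 6018 calls in these comparisons, against 5076, 7 and 5554 without it.

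Direction changed mainly among small differences between the exposed groups that did not pass the test, and the cause was not tested. Leaving out control replicate 3 and lactoferrin replicate 1 together was chosen after seeing the data. It gave log2 fold changes of 0.00066 for VLDLR with PM2.5 against control, of 0.065 for SESN2, -0.040 for PSAT1, 0.0095 for MTHFD1L, -0.00057 for CARS1, 0.0076 for VARS1 and 0.079 for PPP1R15B with lactoferrin before PM2.5 against PM2.5, and of -0.10 for EIF4EBP1 and 0.0041 for EPRS1 against control. Without scaling the difference between exposed groups was -0.0042 for PPP1R15A, and with upper-quartile factors it was 0.00061 for MTHFD2 and 0.0072 for VARS1. Leaving out single libraries gave ranges, between exposed groups, of -0.22 to 0.13 for CHAC1, -0.10 to 0.12 for SESN2, -0.10 to 0.21 for DDIT4, -0.016 to 0.013 for PPP1R15A, -0.056 to 0.086 for PSAT1, -0.13 to 0.023 for PSPH, -0.10 to 0.065 for MTHFD2, -0.11 to 0.051 for PYCR1, -0.0067 to 0.15 for CTH, -0.015 to 0.11 for CARS1, -0.0062 to 0.025 for IARS1, -0.052 to 0.043 for VARS1, -0.13 to 0.067 for PARS2 and -0.21 to 0.063 for PPP1R15B. The ranges were -0.17 to 0.10 for EIF4EBP1 with PM2.5 against control, and -0.0051 to 0.35 for EIF4EBP1 and -0.29 to 0.070 for EPRS1 with lactoferrin before PM2.5 against control. Few reads limited the precision of NUPR1, and left FGF21 untested.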
